A study of Mus musculus with 4 samples.

Results

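The 51 genes described here encode proteins that carry chromosomes through mitosis: the spindle checkpoint and mitotic kinases, the kinetochore, condensin, and the machinery of anaphase, the spindle and cytokinesis. They were taken by symbol from the deposited gene tables, and all 51 were found among 17559 genes. The study measured RNA-seq in mouse CD8+ T cells of C57BL/6 origin, from tissue labelled LN, in which every group carried the OT-I receptor transgene, specific for an ovalbumin peptide. Cells selected to above 95% purity by negative magnetic sorting were stimulated for 2 d with IL-2 (10 ng/ml), anti-CD28 at 2 µg/ml and anti-CD3 at 1 µg/ml, and then kept in IL-2 alone for 2 d. The control group had 2 libraries, labelled as control-treated. The NaBu group also had 2, from cells given 1 mM NaBu for 12 h. NaBu commonly stands for sodium butyrate, the salt of a short-chain fatty acid that inhibits histone deacetylases. The labels do not say whether replicates were separate cultures or animals. The p-values therefore reflect the spread between these libraries alone, and that spread may be technical.

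In dividing cells, condensin folds the replicated chromosomes and the kinetochore, built on centromeric chromatin that holds the histone variant CENP-A, attaches them to spindle microtubules. Unattached kinetochores keep the spindle checkpoint active, which restrains CDC20, the activator of the anaphase-promoting complex. Once every chromosome is attached, that complex marks securin and cyclin B for destruction, separase cuts cohesin, and the cell divides. Most of these genes are transcribed late in the cell cycle, and activated CD8+ T cells are known for rapid division.

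Libraries held 19857701 to 20548571 expected counts, and every member had an FPKM of 1 or more in every library, with at least 57 counts. FPKM is the number of fragments per kilobase of transcript scaled to the mapped fragments of the library, and values below follow the order control 1, control 2, NaBu 1, NaBu 2. Of 8 CD8 T cell markers, all 8 had an FPKM of at least 93.88 in each library, with a summed FPKM of 2088 to 2120 in the controls and 1772 to 1781 in NaBu; 7 were lower and *Cd3g* was higher by the test used below. Several low-level markers of other cell types were higher in NaBu. The myeloid, stromal and CD4 T cell markers below were named after their values were seen. Of 8 listed myeloid markers, summing to 3.98 to 4.22 in the controls and 7.87 to 9.22 in NaBu, 4 were tested: *Itgam* (0.45 and 0.45 against 4.83 and 3.79) and *Mpeg1* (0.20 and 0.39 against 1.96 and 1.86) were higher, *Xcr1* was lower and *Fcgr3* was not past the test. Of 5 stromal and endothelial markers, 4 were tested: *Pdgfrb* (0.05 and 0.10 against 1.51 and 1.2) and *Col1a1* (0.04 and 0.11 against 0.54 and 0.54) were higher, *Col1a2* was not past the test, and *Pecam1*, which makes up most of the list's sum of 21.02 to 22.24 in the controls and 18.15 to 19.10 in NaBu, was lower. Of 4 CD4 T cell markers, 3 were tested: *Cd4* itself was higher, at 0.02 and 0.03 against 0.66 and 0.65. *Zbtb7b*, which makes up most of the list's sum of 19.60 to 21.36 against 27.09 to 27.18, was also higher. *Foxp3* was not past the test, and *Cd40lg* was not tested, at 0.28 and 0.24 against 0.12 and 0. The 3 erythroid markers summed to 0.91 to 1.18 in the controls and 6.69 to 7.41 in NaBu, mostly *Hba-a1*, which was higher. The 4 NK markers summed to 115 and 133 in the controls and 102.2 and 106.6 in NaBu, mostly *Klrd1*, and the 4 B cell markers to 4.09 to 5.75 and 1.98 to 2.64. *Adgre1*, of macrophages, *Cdh5*, of endothelium, and *Ncr1*, of NK cells, were at or near 0 in every library, at most 0.02, 0.01 and 0.10. Their part in the results below was not tested.

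Of the 51 members, 50 were lower and 1 was higher in NaBu by the quasi-likelihood test of edgeR, with Benjamini-Hochberg adjustment and a threshold of 0.05. Over all 12943 genes tested, 34.1% were lower and 34.5% higher by the same rule, or 68.6% in either direction. The fall was 2-fold or more for 46 members, against 8.11% of all genes tested, and no member was higher by 2-fold or more, against 14.9% of all genes. Their median log2 fold change was -2.05, a 4.14-fold fall, beside a median of 0.005 over all genes tested. In each of the 50, both NaBu libraries lay below both controls, which held for 35.9% of tested genes. With a fold change of 1.5 as the null (edgeR's glmTreat), 50 members remained lower, against 12.1% of all genes tested. The exception was *Pttg1*, encoding securin, whose NaBu libraries both lay above the controls, as did those of 48% of tested genes. Fold changes come from the fit to scaled counts and so differ somewhat from ratios of the printed FPKM. In bulk RNA, fewer dividing cells and less of these transcripts per dividing cell cannot be told apart.

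**Figure D1:**
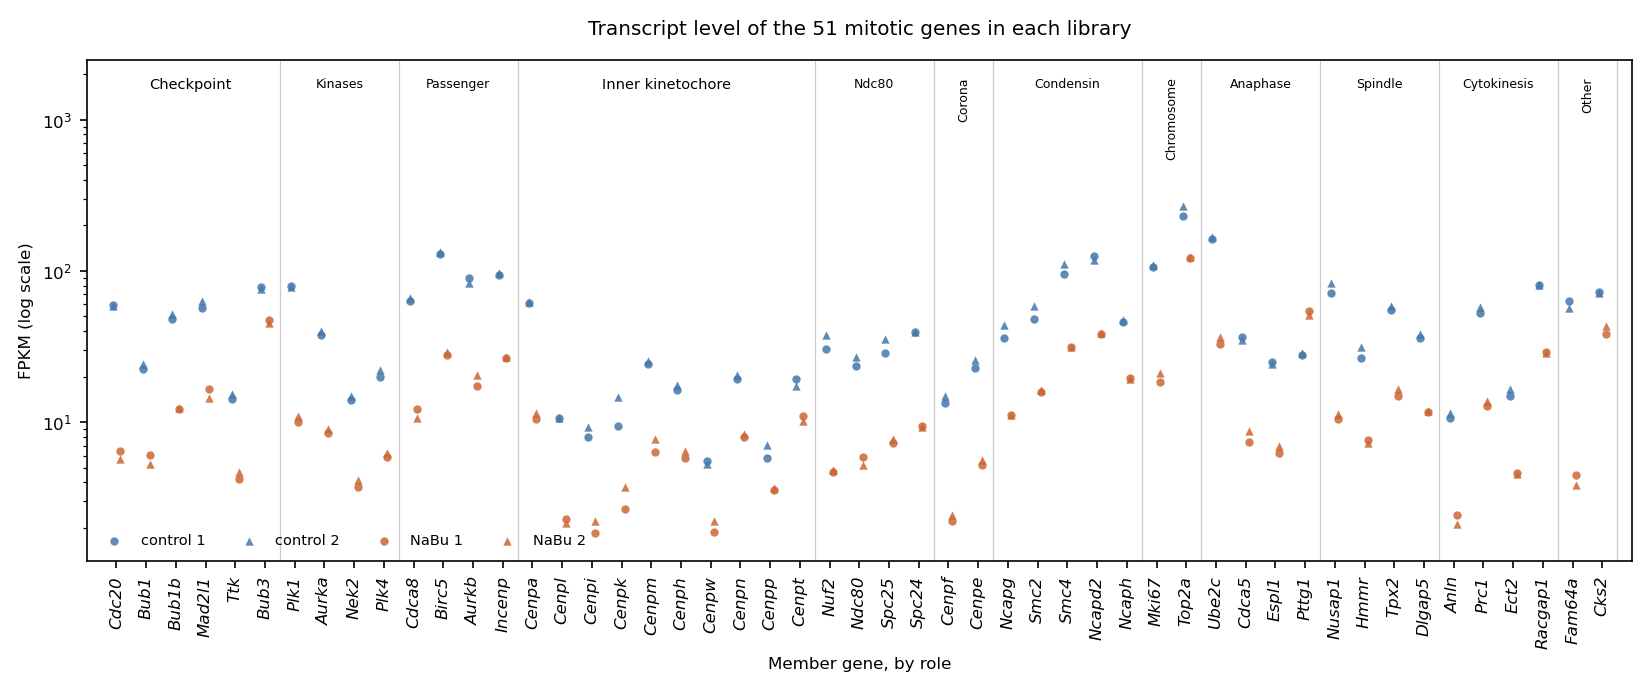
FPKM on a log axis of each of the 51 members in the 4 libraries, grouped by role, with circles for replicate 1 and triangles for replicate 2. The NaBu points lie below the control points for every gene but *Pttg1*, whose NaBu points lie above.

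The summed FPKM of the 51 genes went from 2570 and 2710 in the controls to 784.7 and 805.3 in NaBu, or 30.1% of the control level. Single members kept between 6.95% (*Fam64a*) and 57.5% (*Cenpt*) or 60.1% (*Bub3*) of their control FPKM, apart from *Pttg1* at 186%. By size of fall, 3 members fell 8-fold or more, 24 fell 4-fold to 8-fold and 19 fell 2-fold to 4-fold. The median member stood at the 83.8th percentile of tested genes by FPKM in the controls and at the 50.8th in NaBu. Members largely kept their order, with a Spearman correlation of 0.839 between mean control and mean NaBu FPKM across the 51 genes, which share libraries and are not independent replicates. The log2 fold change was nearly unrelated to the control level, with a Spearman correlation of -0.141 across the same genes.

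The sequences upstream of these genes were compared because the members moved together. Late cell cycle promoters are known to carry CCAAT boxes, bound by NF-Y, and a cell cycle homology region (CHR), the letters TTTGAA, bound by the MuvB complex. RefSeq promoters (assembly GRCm38.p6, a patch release of mm10) run from 250 bases before to 50 after a start, and 44 of the 51 members matched. *Aurkb*, *Dlgap5*, *Fam64a*, *Incenp*, *Smc4*, *Spc24* and *Tpx2* did not match. Searched on both strands in the first start listed for each gene, TTTGAA was found in 27 of the 44 (61.4%), against 12.0% of 10303 tested genes with a promoter and 17.9% of all 32851 promoters. CCAAT was found in 32 (72.7%), against 39.4% of tested genes and 37.4% of all promoters. Both occurred in 24 (54.5%), against 5.22% and 6.95%. The E2F-like letters TTTGGCGC or TTTCCCGC were found in 4 members (9.09%), against 3.18% and 1.56%. Matches of different motifs overlapped in 2 places in the member promoters. A match is a description of letters, not evidence of binding.

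The TTTGAA matches lay close to the start, at a median position of -9, where negative positions are bases before the start. In the 250 bases before the start alone, 14 of the 44 promoters (31.8%) held TTTGAA, against 10.7% of tested genes. The CCAAT matches had a median position of -65. The promoter of *Plk1*, a mitotic kinase, is shown over the bases before its start (chr7:122159185-122159434, + strand), followed by a stretch of 30 bases just after it (chr7:122159453-122159482). Stretches of 30 bases follow for *Cdc20* (chr4:118437344-118437373, - strand), *Bub3* (chr7:131560315-131560344, + strand), *Cenpa* (chr5:30666788-30666817 and chr5:30666890-30666919, + strand) and *Ncapd2* (chr6:125191617-125191646 and chr6:125191692-125191721, - strand). Capitals mark CCAAT or its complement ATTGG, and TTTGAA or its complement TTCAAA. These genes led their role groups by control level, except *Cdc20*, which was chosen after its values were seen for its large fall and its adjacent matches. *Birc5*, which led the chromosomal passenger complex, is not printed, and its window held none of the motifs searched. Every printed gene therefore holds a match, which is not so for all members.
Plk1 upstream: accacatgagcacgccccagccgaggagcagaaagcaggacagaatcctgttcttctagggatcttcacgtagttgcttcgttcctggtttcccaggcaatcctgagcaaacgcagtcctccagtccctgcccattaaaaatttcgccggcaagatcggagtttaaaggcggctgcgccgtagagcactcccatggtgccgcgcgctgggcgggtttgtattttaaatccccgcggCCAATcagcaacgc
Plk1 after the start: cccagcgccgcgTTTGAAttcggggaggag
Cdc20: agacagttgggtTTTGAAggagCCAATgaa
Bub3: gagccgttggcgTTCAAAatcagCCAATga
Cenpa CCAAT: acctttattctcATTGGtttatctggatgt
Cenpa CHR: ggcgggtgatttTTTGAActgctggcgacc
Ncapd2 CCAAT: agcctgccgcggATTGGccggttcctccgc
Ncapd2 CHR: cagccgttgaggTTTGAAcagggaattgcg
The *Bub3* and *Cdc20* stretches each hold both motifs side by side, although *Bub3* had the smallest fall and *Cdc20* the second largest of the 51. The window of *Pttg1* held none of the 3 motifs, and neither did those of *Birc5*, *Mad2l1*, *Nuf2*, *Nusap1*, *Ncaph*, *Plk4*, *Cenpp* and *Cenpt*, which fell.

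**Figure D2:**
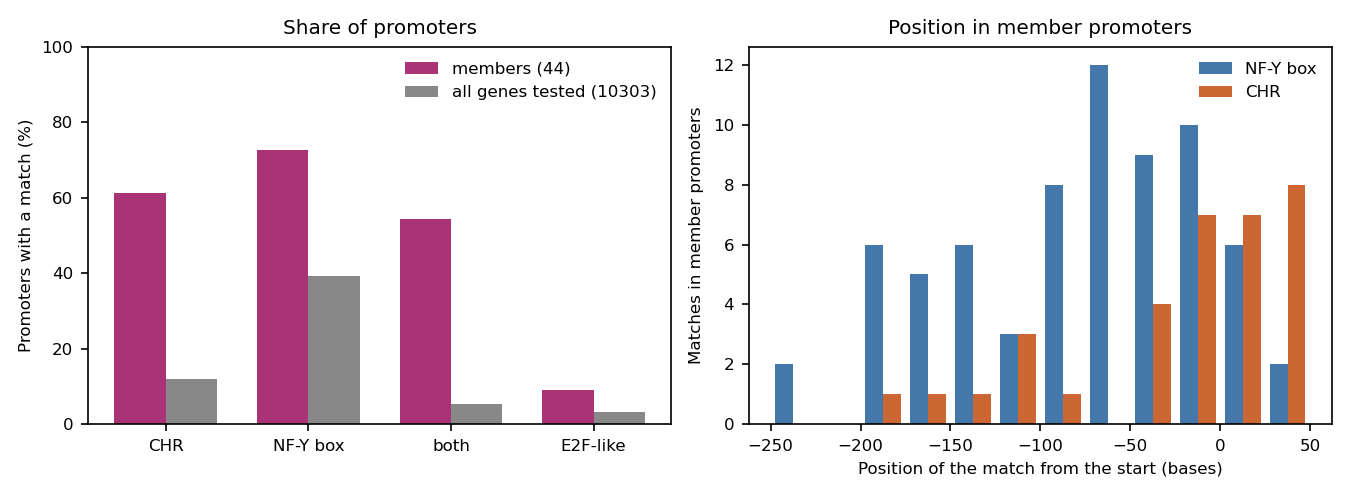
Left, percent of promoters with a match to the CHR letters, to the NF-Y box, to both, or to the E2F-like letters, for 44 members and 10303 tested genes. Right, number of matches in member promoters by position of the match from the start, in bins of 25 bases; CHR matches gather around the start and NF-Y matches mostly before it.

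All 6 genes of the checkpoint group fell, with log2 fold changes from -3.38 to -0.83 and a median of -2.09. *Cdc20* (gene 107995, chromosome 4, 118432901 to 118437343), the checkpoint's target, had an FPKM of 59.88, 58.37, 6.47 and 5.66, with a fitted log2 fold change of -3.38 ± 0.08 SE (edgeR adjusted p = 1.29e-09). Its level kept 10.3% of the control value. The kinase gene *Bub1* went from 22.28 and 24.27 to 6.10 and 5.29, a 4.37-fold fall. *Bub1b*, encoding BUBR1, which binds CDC20 in the mitotic checkpoint complex, went from 48.20 and 51.87 to 12.16 and 12.43, a 4.35-fold fall. These 2 genes fell by nearly the same factor, and in both the groups were far apart. *Ttk*, encoding the kinase MPS1 that starts checkpoint signalling, fell 3.58-fold, and *Mad2l1*, encoding MAD2, fell 4.16-fold. *Bub3* (gene 12237, chromosome 7, 131560367 to 131571895), encoding the adaptor that brings BUB1 and BUBR1 to kinetochores, had an FPKM of 77.75, 75.41, 47.01 and 44.97, with a fitted log2 fold change of -0.83 ± 0.06 SE (edgeR adjusted p = 6.21e-07).

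The smaller fall of *Bub3* changed the composition of this group. *Bub3* made up 27.8% and 26.1% of the group's summed FPKM in the controls and 50.8% and 51.5% in NaBu. *Cdc20* made up 21.4% and 20.2% in the controls and 6.99% and 6.48% in NaBu. The FPKM ratio of *Bub3* to *Bub1* was 3.49 and 3.11 in the controls and 7.71 and 8.5 in NaBu, and that of *Cdc20* to *Mad2l1* was 1.05 and 0.921 against 0.390 and 0.394. For both ratios the groups did not overlap. With 2 libraries a group, a two-sided exact permutation test of a single ratio cannot give a p under 0.333, so the ratios are given as values.

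**Figure D3:**
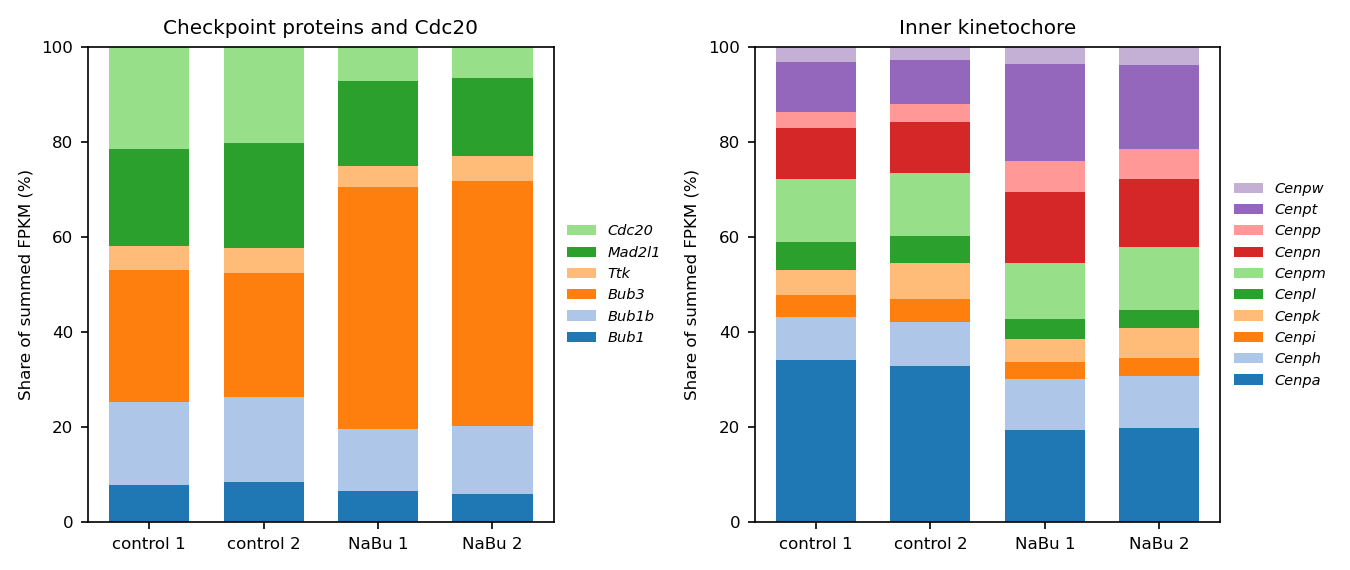
Share of summed FPKM (%) taken by each gene in each library, for the checkpoint group on the left and the inner kinetochore on the right. *Bub3* takes 50.8% and 51.5% of the checkpoint group in NaBu, and *Cenpa* takes 19.5% and 19.8% of the inner kinetochore.

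The other mitotic kinases were all lower. *Plk1* (gene 18817), which acts from mitotic entry to cytokinesis and whose promoter is printed above, had an FPKM of 79.83, 77.82, 10.06 and 10.92, an 8.03-fold fall. *Aurka*, which acts at spindle poles, went from 37.81 and 39.89 to 8.49 and 8.94, a 4.76-fold fall. Both genes were well separated between groups, and *Plk1* had the third largest fall of the members. *Nek2* and *Plk4*, kinases of centrosome separation and of centriole duplication, fell 3.94-fold and 3.72-fold. The chromosomal passenger complex, which corrects faulty attachments, was lower in all 4 subunits. Its kinase gene *Aurkb* went from 90.29 and 82.72 to 17.39 and 20.44, a 4.89-fold fall. Its survivin gene *Birc5* went from 128.87 and 133.66 to 27.75 and 29.07, a 4.91-fold fall. The borealin gene *Cdca8* fell 6.06-fold, and the scaffold gene *Incenp* fell 3.8-fold. *Incenp* was 25% and 25.4% of the summed FPKM of the complex in the controls and 31.5% and 31.1% in NaBu, while *Aurkb* overlapped between the groups, at 24.0% and 21.8% against 20.8% and 23.4%. The ratio of *Aurka* to *Aurkb* overlapped too, at 0.419 and 0.482 in the controls and 0.488 and 0.437 in NaBu.

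Inner kinetochore genes covered a wide range of falls. All 10 fell, 8 of them by 2-fold or more, and the median log2 fold change was -1.74. *Cenpa* (gene 12615, chromosome 5, 30666877 to 30674837), encoding the centromeric histone, had an FPKM of 61.52, 62.27, 10.50 and 11.50, a 5.98-fold fall. *Cenpl*, which works with CENP-N, went from 10.68 and 10.70 to 2.28 and 2.16, a 5.16-fold fall. *Cenpn*, whose product binds CENP-A nucleosomes, went from 19.24 and 20.35 to 7.94 and 8.37, a 2.59-fold fall. Thus partners in the same subcomplex had different factors. *Cenpi* fell 4.54-fold, *Cenpk* 4.04-fold, *Cenpm* 3.75-fold and *Cenph* 2.98-fold, and these 4 encode the subunits of a further subcomplex. *Cenpk* varied most between replicates, at 9.46 and 14.60 in the controls and 2.66 and 3.70 in NaBu, and its log2 fold change had an SE of 0.23.

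The smallest falls in the inner kinetochore were those of *Cenpt* and *Cenpp*. *Cenpt* (gene 320394), whose product recruits the Ndc80 complex, went from 19.36 and 17.43 to 10.94 and 10.20, with a fitted log2 fold change of -0.90 ± 0.09 SE (edgeR adjusted p = 8.67e-06). *Cenpp* went from 5.79 and 7.05 to 3.55 and 3.69, with the highest edgeR adjusted p among the members, 0.000539. Both still lay wholly below the controls. *Cenpw*, the histone-fold partner of CENP-T, was the lowest member in the controls, at 5.54 and 5.26 against 1.89 and 2.22 in NaBu, and fell 2.80-fold. *Cenpa* thereby dropped from 34.2% and 32.8% of the group's summed FPKM to 19.5% and 19.8%, and *Cenpt* went from 10.7% and 9.19% to 20.4% and 17.5%.

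The Ndc80 complex, the rod that grips microtubules, was lower in all 4 subunits, with fall factors from 4.49 for *Spc24* to 7.70 for *Nuf2*. *Nuf2* went from 30.48 and 37.79 to 4.68 and 4.79. *Ndc80*, its partner at the microtubule-binding end, went from 23.67 and 26.84 to 5.86 and 5.22, a 4.87-fold fall. *Spc25* went from 28.43 and 35.35 to 7.29 and 7.71, a 4.58-fold fall. Control 2 was higher than control 1 in these 3 genes, and both NaBu libraries lay below either. The ratio of *Ndc80* to *Nuf2* was 0.777 and 0.710 in the controls and 1.25 and 1.09 in NaBu, while that of *Spc24* to *Spc25* overlapped, at 1.38 and 1.12 against 1.29 and 1.21. In the fibrous corona, the outermost kinetochore layer, the kinesin gene *Cenpe* fell 4.84-fold and *Cenpf* 6.45-fold, the latter from 13.36 and 14.82 to 2.23 and 2.44.

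**Figure D4:**
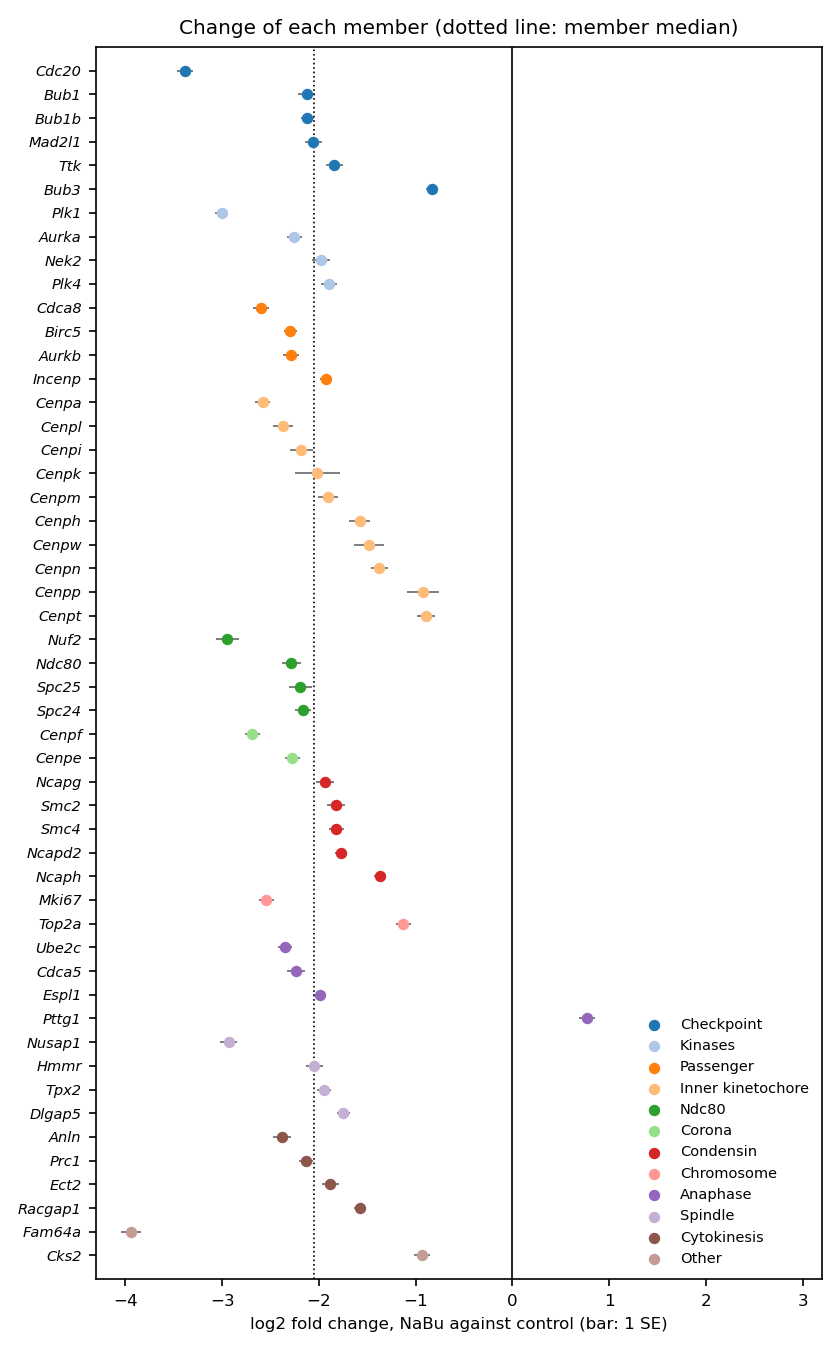
log2 fold change of NaBu against control for each member, with bars of 1 SE, coloured by role; the dotted line is the member median of -2.05. *Fam64a*, *Cdc20* and *Plk1* lie furthest left, and *Pttg1* alone lies right of 0.

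Condensin, the ring complex that compacts chromosomes, moved with a narrow spread. The log2 fold changes of its 5 subunits ran from -1.94 to -1.37. *Smc2* went from 47.74 and 58.39 to 15.79 and 16.30, a 3.54-fold fall. *Smc4*, its ATPase partner in every condensin, went from 95.14 and 110.96 to 31.24 and 31.18, a 3.53-fold fall. The ratio of *Smc2* to *Smc4* was 0.502 and 0.526 in the controls and 0.505 and 0.523 in NaBu, so the pair kept its proportion within the spread of the libraries. Of the condensin I subunits, *Ncapg* fell 3.83-fold, *Ncapd2* 3.41-fold and *Ncaph* 2.58-fold. The condensin II subunits, which are not members, were also lower, *Ncapg2* by 3.47-fold, *Ncaph2* by 1.69-fold and *Ncapd3* by 1.57-fold. *Ncapd3* did not exceed the 1.5-fold null (adjusted p = 0.156 with edgeR's glmTreat). The ratio of *Ncapd2* to *Ncapd3* went from 5.41 and 4.89 to 2.40 and 2.34 and that of *Ncaph* to *Ncaph2* from 0.621 and 0.689 to 0.441 and 0.419. That of *Ncapg* to *Ncapg2* moved less in the same direction, from 1.31 and 1.44 in the controls to 1.26 and 1.24 in NaBu.

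Among other chromosome proteins, *Top2a* (gene 21973), the topoisomerase that untangles sister DNAs, was the highest member in both groups. It had an FPKM of 231.77, 267.14, 120.81 and 123.18, a 2.19-fold fall, the fifth smallest of the 50 falls. *Mki67*, encoding the Ki-67 protein that coats mitotic chromosomes, went from 106.43 and 109.77 to 18.45 and 21.23, a 5.82-fold fall. These 2 proliferation markers thus differed in how much they fell.

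The anaphase group held the member that rose. *Pttg1* (gene 30939, chromosome 11, 43420244 to 43427463) encodes securin, the inhibitor and chaperone of separase that is destroyed at anaphase. Its FPKM was 27.76 and 28.69 in the controls and 54.10 and 50.95 in NaBu, with a fitted log2 fold change of 0.77 ± 0.08 SE (edgeR adjusted p = 1.06e-05). Both NaBu libraries were above both controls, and *Pttg1* moved from 32nd to 2nd place among the members by level. It rose against the 1.5-fold null as well (adjusted p = 0.0201 with edgeR's glmTreat). *Espl1*, encoding separase itself, went from 24.96 and 24.08 to 6.24 and 6.93, a 3.98-fold fall. The ratio of *Espl1* to *Pttg1* was 0.899 and 0.839 in the controls and 0.115 and 0.136 in NaBu. *Cdca5*, encoding sororin, which protects cohesin, fell 4.72-fold, and *Ube2c*, encoding the ubiquitin-conjugating enzyme of the anaphase-promoting complex, went from 162.67 and 167.57 to 33.03 and 36.30, a 5.09-fold fall.

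*Fam64a* (gene 109212, chromosome 11, 72042428 to 72047372; also named *Pimreg*), a mitotic regulator, had the largest fall. Its FPKM was 63.28 and 56.74 in the controls and 4.50 and 3.84 in NaBu, with a fitted log2 fold change of -3.94 ± 0.10 SE (edgeR adjusted p = 1.57e-09). It went from the 90th to the 32.9th percentile of tested genes by FPKM. *Cks2*, encoding a small subunit that binds cyclin-dependent kinases, fell only 1.91-fold, from 72.98 and 71.83 to 37.98 and 42.94.

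Spindle and cytokinesis genes were lower throughout, and 4 genes each had median log2 fold changes of -2.0 and -2.01. *Nusap1*, a microtubule bundler, went from 71.91 and 83.47 to 10.51 and 11.34, a 7.63-fold fall. *Tpx2*, the activator of Aurora A on the spindle, went from 54.77 and 58.36 to 14.80 and 16.56, a 3.87-fold fall. *Hmmr* fell 4.14-fold and *Dlgap5*, a spindle-stabilising factor, 3.35-fold. In cytokinesis, *Anln*, encoding the contractile ring scaffold anillin, fell 5.22-fold, and *Prc1*, which bundles the central spindle, 4.38-fold. *Ect2*, the exchange factor that activates RhoA at the equator, went from 14.81 and 16.51 to 4.58 and 4.51, a 3.68-fold fall. *Racgap1*, encoding the centralspindlin subunit that binds ECT2, went from 80.86 and 80.77 to 29.25 and 28.84, a 2.98-fold fall.

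Outside the members, 119 other genes of the same machinery were listed, of which 100 were lower, 2 were higher and 17 were not past the test (median log2 fold change -1.03). In 62 the fall reached 2-fold, against 8.11% of all genes tested. By the same rule, 34.1% of all genes tested were lower and 34.5% higher. The counts of each list below stand beside these shares, and several lists are small. Of 18 other kinetochore subunits, 16 were lower, with *Casc5*, encoding the outer kinetochore scaffold KNL1, 5.35-fold lower, *Ska1* 4.59-fold and *Ska2* 4.43-fold. Of 6 genes for loading CENP-A, all were lower, among them *Oip5* (3.95-fold) and *Mis18a* (2.96-fold). Of 12 other checkpoint genes, 11 were lower, led by the shugoshin genes *Sgol2a* (6.38-fold) and *Sgol1* (5.42-fold), which guard centromeric cohesion, and *Spdl1* (4.32-fold). *Cenpb*, encoding the protein that binds centromeric satellite DNA, was not past the test, at 55.26 and 54.60 in the controls and 64.37 and 64.94 in NaBu (edgeR adjusted p = 0.0516). It was named after its values were seen.

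Of 12 cohesin genes, 11 were lower, and the list's median was -0.60 (log2). *Esco2*, the acetyltransferase of newly replicated cohesin, fell 4.39-fold, and the subunit genes *Stag1* and *Stag2* fell 2.47-fold and 2.42-fold. Of 14 core subunits of the anaphase-promoting complex, 10 were lower and 4 were not past the test, with a median of -0.43, and *Anapc5* (2.47-fold), *Anapc15* (2.44-fold) and *Cdc23* (1.78-fold) fell most. Of 6 genes listed as other regulators of that complex, 4 were lower. In this list *Mastl*, *Arpp19* and *Ensa* do not encode activators, inhibitors or enzymes of the complex itself. *Arpp19* and *Ensa*, named after their values were seen, were not past the test, at log2 fold changes of 0.23 and -0.06. *Fzr1*, encoding CDH1, the activator that replaces CDC20 late in mitosis, had an FPKM of 65.14, 58.07, 28.38 and 29.96, a 2.26-fold fall. Its ratio to *Cdc20* was 1.09 and 0.995 in the controls and 4.39 and 5.29 in NaBu. *Fbxo5*, encoding the inhibitor EMI1, fell 5.44-fold and the kinase gene *Mastl* 4.45-fold.

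Of 7 centriole duplication genes, 6 were lower, with *Stil* 3.94-fold, *Pcnt* 2.64-fold and *Sass6* 2.55-fold lower, and *Cep63*, named after its values were seen, was 1.35-fold higher. Of 20 other spindle genes, 19 were lower, led by *Fam83d* (6.59-fold), *Ckap2l* (6.57-fold) and *Spag5* (5.80-fold). Of 14 other cytokinesis genes, 8 were lower, led by *Depdc1a* (6.74-fold), *Shcbp1* (5.87-fold) and *Cep55* (5.11-fold), which brings the abscission machinery to the midbody. The abscission genes *Chmp2a*, *Chmp4b*, *Vps4a*, *Vps4b* and *Pdcd6ip* of the ESCRT pathway, named after their values were seen, were not past the test, and *Tsg101*, of the same pathway, was higher (log2 fold change 0.24 ± 0.09 SE, edgeR adjusted p = 0.0372). Calls of higher genes in these lists depended on the settings, with 0 to 5 across them. Of the 7 genes of the MuvB complex and its activators, 6 were lower, 3 by 2-fold or more, and the list's median was -0.50 (log2). The core genes *Lin52*, *Lin54* and *Rbbp4* fell 1.41-fold, 1.31-fold and 1.31-fold, and *Lin37* was not past the test. These core genes were named after their values were seen. *Foxm1*, a transcription factor of late cell cycle genes, had an FPKM of 42.73, 42.81, 7.30 and 7.35, a 6.24-fold fall, *Mybl2* fell 3.2-fold and *Lin9* 2.67-fold.

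**Figure D5:**
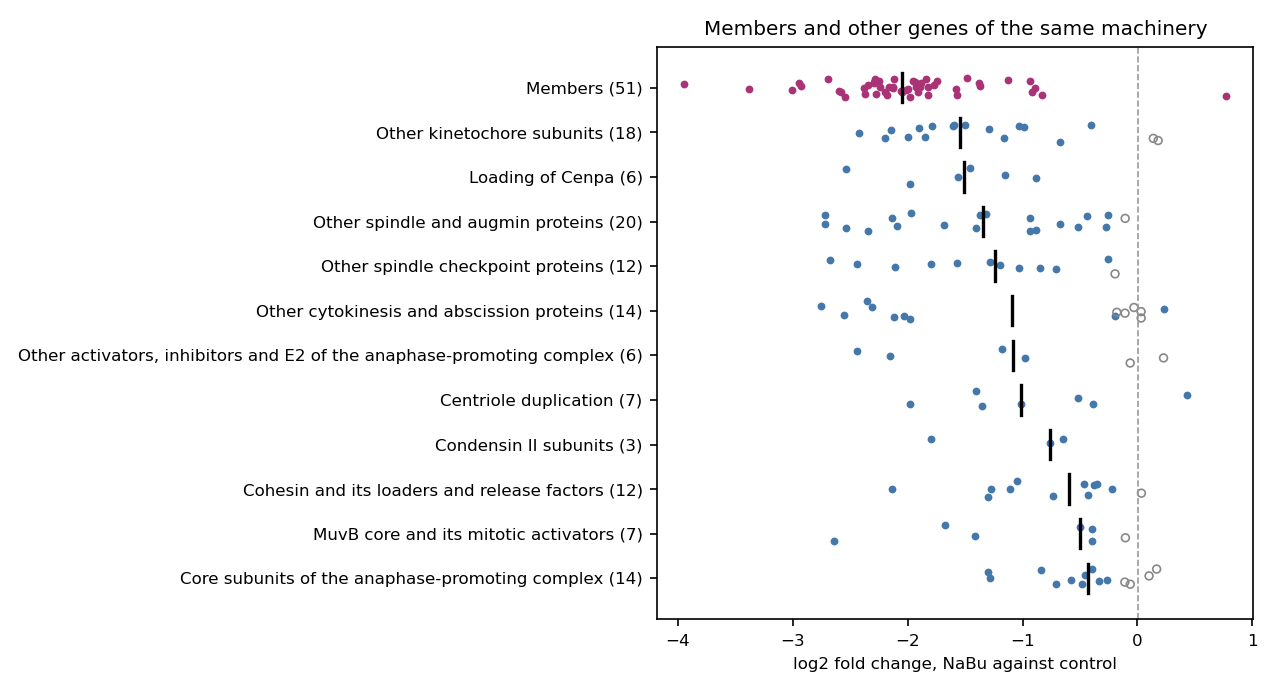
log2 fold change of NaBu against control for the members and for 11 lists of other genes of the machinery, with the number of genes in brackets. Filled points passed the test, open points did not, black bars are medians and the dashed line is the median of all genes tested; list medians run from -1.55 for other kinetochore subunits to -0.43 for the core of the anaphase-promoting complex.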

How the data were processed

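RNA-seq was deposited for 2 control and 2 NaBu libraries, grouped by sample title. Reads were processed with Bowtie2 and RSEM on mm10, per the submitters' processing notes; the sources used here do not give their versions, the annotation, the kit or its strand setting. The authors' expected counts are estimated per gene and not normalized, per the file headers, and were rounded to whole numbers for testing. The authors' FPKM values were used as deposited for levels and ratios. RSEM divides reads shared by several genes, and 16 of the 51 members, *Pttg1* among them, had expected counts that were not whole in at least 1 library.

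All genes were fitted together with edgeR 4.0.16 in R 4.3.3 (TMM factors, filterByExpr, quasi-likelihood F test, no covariates, Benjamini-Hochberg at 0.05), which kept 12943 genes. Folds are from this fit, on the TMM scale. The standard error (SE) was derived from F, as |log2 fold change|/√F. On library totals the median log2 fold change of all genes was 0.102 in place of 0.005. Within groups, libraries differed by more than counting noise (chi-square per degree of freedom 7.32 in controls, 2.78 in NaBu). Scripts were tested on simulated counts. Coordinates and promoters are RefSeq's for GRCm38.p6, in which 17518 of 17559 gene identifiers were found; the bases after the start matched a GENCODE transcript of the same gene in the forward direction for 36 members and in reverse for 0.

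Members and lists were chosen with earlier results of these data known. Besides members, the text names per list the 3 called genes that changed most (minimum mean FPKM 1), all genes of lists of 5 or fewer, and those said to be named after their values were seen. Of the genes this rule selects, 1 is not reported here. Alternatives used limma 3.58.1, DESeq2 1.42.0, other scalings and filters, a replicate block and leaving out each library.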

Additional observations from a re-analysis of the deposited data

How the results depend on the processing

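Under each of the 14 alternatives, 50 members were called lower and 1, *Pttg1*, higher, and each of the 51 kept its direction and its call. The member median log2 fold change of -2.05 became -1.99 with a minimum of 5 CPM in 2 libraries, -1.95 on library totals, -1.93 with limma on log2(FPKM + 0.1) and -1.79 with limma on log2(FPKM + 1), with or without the filter on low values, and ran from -2.17 to -1.99 when each library was left out. With 1 library left in a group, that library was assumed to vary like the other group. Against a fold change of 1.5, 2214 of all genes were called higher and 1565 lower. The count of 2 other machinery genes called higher became 0 by glmTreat, 1 by DESeq2, 1 with no filter on low counts, 4 with a minimum of 5 CPM, 5 on library totals, and 4 with limma on log2(FPKM + 0.1) and 4 on log2(FPKM + 1) with the filter, and ran from 1 to 3 when each library was left out. Of the other machinery genes named by size, *Ncapd3* alone lost its call, by glmTreat. With the replicate number as a block, 50 members were lower, 1 was higher and the median was -2.04. Same-numbered libraries did not deviate together (correlation of deviations -0.0306 over 12943 genes). That single value cannot show whether same-numbered libraries share a culture or an animal. The fewest counts behind a member in a library were 57, for *Cenpw*.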

Other observations

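The promoter letters were also read against the changes of genes that are not members, as a description without a test. Only the members were left out, so the other machinery genes listed above remain among these where they have a promoter. Of 514 such tested genes whose first listed promoter held both TTTGAA and CCAAT, 90 (17.5%) were called lower in NaBu by 2-fold or more. The share was 10.2% of 698 genes with TTTGAA alone, 7.34% of 3516 with CCAAT alone and 6.65% of 5531 with neither. Median log2 fold changes were -0.25, -0.08, 0.02 and 0.01 in the same order. Among the members themselves, the median was -2.28 for 3 with TTTGAA alone, -2.08 for 24 with both motifs, -2.0 for 8 with CCAAT alone and -1.90 for 9 with neither, so the order differed from that of the other genes.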
